A study of Arabidopsis thaliana with 6 samples.

Results

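The chromosome ends of Arabidopsis thaliana are described here by the methylation of their CHH cytosines, where H stands for A, C or T. An end was taken as the first 500 kb of each of the 5 nuclear chromosomes or the last 500 kb before the outermost cytosine listed in any library, which gives 10 ends. Each was divided into windows of 300 bp, and a window was kept if at least 10 CHH cytosines were listed in each of the 6 libraries. The ends held 12375 such windows of the 278507 kept genome-wide, with 1151 to 1333 per end. The methylation level of a window in a library was the number of methylated reads at its CHH cytosines divided by all reads there, in percent, so that deeply covered cytosines weighed more. A read was counted at every listed cytosine it covers, so read numbers here are sums over cytosines. Limits given for counting error take these counts as independent and are too narrow where a read spans several cytosines.

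All 3 groups carried nrpd1-3, a T-DNA insertion allele in the Col-0 background that lacks NRPD1, the largest subunit of RNA polymerase IV. One group had no transgene and is called nrpd1-3. A second carried NRPD1ΔCTD, an NRPD1 gene without its C-terminal domain, which in this subunit is mostly a Defective Chloroplasts and Leaves (DeCL) domain. The third carried full-length NRPD1. The titles of its samples name NRPE1FL, which would be the largest subunit of Pol V, but their transgene field gives NRPD1FL, and that field was followed. Both transgenes were genomic clones with the native promoter and a C-terminal FLAG tag, and transgenic seedlings were selected with Basta. DNA came from above-ground tissue of plants aged 2.5 weeks grown in days of 16 h light with nights of 8 h, and each group had 2 libraries. The study describes its replicates as biological, and the sources used here do not say how plants were divided among them. Each transgene was represented by the line deposited under its name, so a line and its transgene cannot be told apart. Wild-type plants were not analysed here, and full-length NRPD1 was the reference.

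Pol IV makes short transcripts that RDR2 turns into double-stranded RNA and DCL3 cuts into 24 nt siRNAs. These guide the methyltransferase DRM2 to matching DNA, where Pol V transcripts act as the scaffold, and asymmetric CHH methylation has to be put back this way after each round of replication. A second enzyme, CMT2, methylates CHH sites of long heterochromatic transposons without siRNAs and prefers CAA and CTA. Arabidopsis chromosome arms are mostly unmethylated genes with short methylated islands, and the ends carry telomeres of repeated TTTAGGG next to short subtelomeric stretches. The left tips of chromosomes 2 and 4 carry the 45S ribosomal RNA gene arrays, most of which the assembly does not hold.

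The sequences that the results turn on are printed 5′ to 3′ on the top strand of the RefSeq assembly TAIR10.1, whose chromosome lengths and cytosine positions matched the files. Capitals mark the CHH cytosines listed in all 6 libraries, as C on the top strand and as G where the cytosine lies on the bottom strand. The outermost kept windows of the left and right tips of chromosome 5 are shown because they are near-copies of each other in opposite orientation, and that of the left tip of chromosome 1 because it opens with telomeric repeats and lost much of its methylation in both mutants.
chr5:1-300: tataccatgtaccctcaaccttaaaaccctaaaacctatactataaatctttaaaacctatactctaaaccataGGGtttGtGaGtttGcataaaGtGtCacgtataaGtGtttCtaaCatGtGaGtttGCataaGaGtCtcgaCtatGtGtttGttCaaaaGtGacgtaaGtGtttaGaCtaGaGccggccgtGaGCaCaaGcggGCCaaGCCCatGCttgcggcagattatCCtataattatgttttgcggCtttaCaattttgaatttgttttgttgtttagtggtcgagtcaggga
chr5:26975101-26975400: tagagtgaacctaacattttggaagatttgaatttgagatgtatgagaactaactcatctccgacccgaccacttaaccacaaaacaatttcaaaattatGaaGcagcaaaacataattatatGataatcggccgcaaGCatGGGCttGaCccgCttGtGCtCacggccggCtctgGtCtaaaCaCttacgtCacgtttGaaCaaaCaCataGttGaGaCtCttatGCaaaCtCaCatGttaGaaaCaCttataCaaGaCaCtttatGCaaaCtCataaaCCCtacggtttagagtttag
chr1:1-300: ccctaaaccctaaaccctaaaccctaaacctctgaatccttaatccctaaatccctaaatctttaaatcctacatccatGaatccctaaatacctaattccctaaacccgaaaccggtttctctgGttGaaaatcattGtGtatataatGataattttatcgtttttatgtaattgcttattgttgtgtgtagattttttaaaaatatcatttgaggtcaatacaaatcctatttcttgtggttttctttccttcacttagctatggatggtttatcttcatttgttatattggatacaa
In the outermost kilobase, the left and right tips of chromosome 5 aligned over 722 columns with 90.2% identity, the longest match between any pair of tips. The right tips of chromosomes 1 and 4 followed with 558 columns at 85.1%. Reads from such copies can be placed on the wrong one, and this was not tested.

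The only telomeric repeat stretch of the ends in which methylation was seen lies 93 bases from the right end of chromosome 5. It is printed with its surroundings, chr5:26975336-26975469, and here the capitals mark the pair of tandem TTTAGGG copies.
chr5:26975336-26975469: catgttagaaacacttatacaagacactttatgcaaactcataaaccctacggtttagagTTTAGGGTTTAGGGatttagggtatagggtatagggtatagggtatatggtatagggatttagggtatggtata
Among windows farther from the tips, a pair on the right end of chromosome 3 showed the largest losses by the naming rule (at least 20 listed cytosines and 2000 bp between named windows). They share 141 aligned columns at 96.5% identity in opposite orientation. A pair on different chromosomes, at the left end of chromosome 3 and the right end of chromosome 2, matched over all 300 columns at 95% identity, again in opposite orientation. The last window printed is next to WOL.
chr3:23108701-23109000: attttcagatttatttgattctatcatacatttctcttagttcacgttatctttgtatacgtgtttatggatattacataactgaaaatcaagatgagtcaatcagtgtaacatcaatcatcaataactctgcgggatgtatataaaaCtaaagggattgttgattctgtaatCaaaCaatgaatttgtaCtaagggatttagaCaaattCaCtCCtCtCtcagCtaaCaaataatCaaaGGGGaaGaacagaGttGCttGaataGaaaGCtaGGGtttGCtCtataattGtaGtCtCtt
chr3:23115601-23115900: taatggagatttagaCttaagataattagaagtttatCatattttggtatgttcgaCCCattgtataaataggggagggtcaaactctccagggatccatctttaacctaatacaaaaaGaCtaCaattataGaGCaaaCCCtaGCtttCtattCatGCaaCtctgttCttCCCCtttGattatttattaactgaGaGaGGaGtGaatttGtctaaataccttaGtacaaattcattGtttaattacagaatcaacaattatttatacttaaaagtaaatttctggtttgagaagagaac
chr3:422701-423000: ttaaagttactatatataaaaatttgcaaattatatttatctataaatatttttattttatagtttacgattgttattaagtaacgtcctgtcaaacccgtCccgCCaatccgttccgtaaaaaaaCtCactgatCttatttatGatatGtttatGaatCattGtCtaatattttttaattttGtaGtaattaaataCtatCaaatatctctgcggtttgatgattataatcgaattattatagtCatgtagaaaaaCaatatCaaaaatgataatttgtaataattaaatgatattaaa
chr2:19623301-19623600: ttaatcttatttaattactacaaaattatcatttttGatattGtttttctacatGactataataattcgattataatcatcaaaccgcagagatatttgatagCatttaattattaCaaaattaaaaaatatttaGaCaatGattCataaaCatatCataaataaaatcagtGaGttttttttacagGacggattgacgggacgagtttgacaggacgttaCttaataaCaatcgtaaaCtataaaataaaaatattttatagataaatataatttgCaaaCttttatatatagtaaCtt
chr2:362401-362700: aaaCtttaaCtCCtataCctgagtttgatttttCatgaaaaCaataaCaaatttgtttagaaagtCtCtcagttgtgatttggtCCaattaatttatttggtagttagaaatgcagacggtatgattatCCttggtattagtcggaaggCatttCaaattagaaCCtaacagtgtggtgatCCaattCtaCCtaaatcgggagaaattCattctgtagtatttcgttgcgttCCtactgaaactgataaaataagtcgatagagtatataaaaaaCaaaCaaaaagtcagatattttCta

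Reads summed over CHH cytosines numbered 192342372 to 225676590 per library, 15.2 to 16.3 per listed cytosine. Within the end windows the depth was 13.2 to 14.4 reads per cytosine. It was 25.4 to 27.0 at the left end of chromosome 2 and 11.1 to 14.3 at the others. Coding exons of the ends, which carry little CHH methylation in this species, read 1.14% and 0.573% in the nrpd1-3 libraries, replicate 1 first, against 0.612% to 0.648% in the other 4. Replicate 1 of nrpd1-3 was therefore higher than all other libraries over sequence with little methylation, and what set it apart was not tested. Values near 1% are given with this difference in view.

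CHH methylation rose steeply at the tips themselves. The outermost kilobase, which was chosen for description after the data had been seen, has sequence at 8 of the 10 ends, since the left tips of chromosomes 2 and 4 start with unknown bases in the assembly. Pooled over these 8 ends, the level was 14.5% in both full-length libraries, 10.2% and 10.1% in NRPD1ΔCTD and 4.99% and 4.19% in nrpd1-3. The 3 groups did not overlap. The means were 14.5% ± 0.0397, 10.2% ± 0.0997 and 4.59% ± 0.568 (SD, n = 2 each). The level fell by 9.90 points from full length to nrpd1-3. NRPD1ΔCTD lay 5.59 points above nrpd1-3 and fell by 4.31 points against full length. Each difference had an exact two-sided permutation p of 0.33, the smallest that 2 libraries against 2 can give. NRPD1ΔCTD thus stood at 56.4% of the way from nrpd1-3 to full length.

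**Figure D1:**
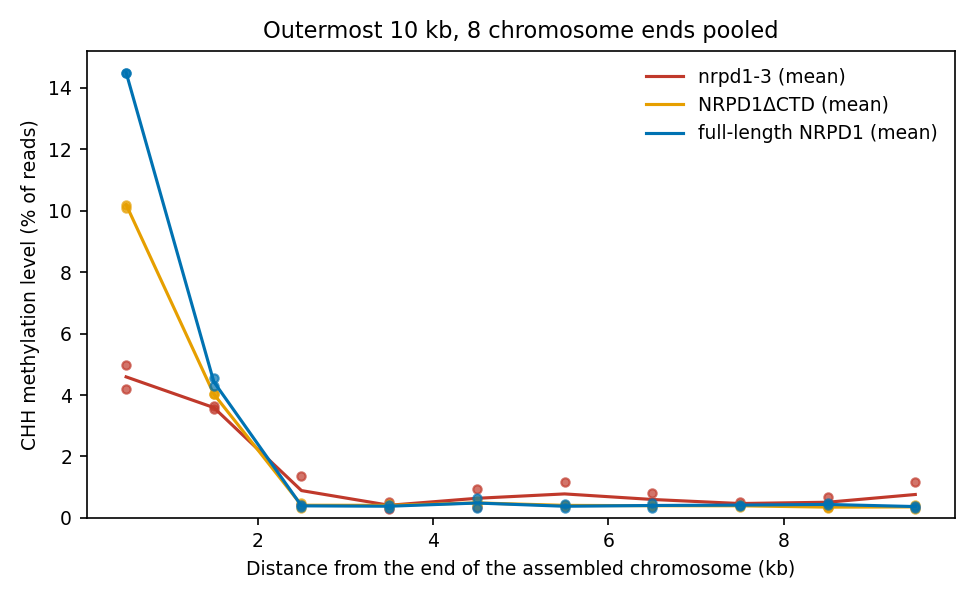
CHH methylation level (percent of reads, vertical axis) against distance from the end of the assembled chromosome (kb, horizontal axis) in steps of 1 kb, with 8 ends pooled. Points are libraries and lines are group means. Levels fell from 14.5%, 10.2% and 4.59% in the outermost kilobase to at most 1.37% in any library from 2 kb inwards.

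The gradient was short. Between 1 and 2 kb from the tip the full-length libraries read 4.30% and 4.55%, NRPD1ΔCTD 4.04% and 4.02%, and nrpd1-3 3.64% and 3.55%. The groups were again in the same order without overlap, but the loss in nrpd1-3 was only 0.832 points. From 2 to 3 kb the full-length libraries read 0.357% and 0.424%, and no step out to 10 kb exceeded 0.645% in a full-length library. The outermost kilobase rested on 1016 to 1313 listed cytosines and 17419 to 24334 reads per library, with the most cytosines in full length. Over the 788 cytosines listed in all 6 libraries the levels were 12.2% and 12.8% in full length, 9.01% and 9.03% in NRPD1ΔCTD, and 5.04% and 4.29% in nrpd1-3. The order of the groups and the share regained, 55.4%, hardly moved.

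The 8 tips were not alike. At the left tip of chromosome 5 the outermost kilobase read 15.3% and 17.6% in full length, 18.0% and 14.2% in NRPD1ΔCTD, and 5.13% and 4.29% in nrpd1-3. NRPD1ΔCTD and full length overlapped there, and the share regained was 96.8%. Its near-copy on the right tip read 18.5% and 19.6% in full length, then 17.9% and 15.2%, then 5.56% and 4.81%, with a share of 82.1%. NRPD1ΔCTD lay below full length at this tip without overlap, but over the 87 cytosines listed in all libraries full length read 12.9% and 14.5% and NRPD1ΔCTD 13.9% and 10.4%, which overlap.

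The right tips of chromosomes 1 and 4, also alike in sequence, regained less. Chromosome 4 read 18.4% and 18.1% in full length, 11.3% and 11.8% in NRPD1ΔCTD, and 7.85% and 7.98% in nrpd1-3, a share of 35.1%. Over the 175 cytosines listed in all libraries full length was lower there, at 13.5% and 14.2%, and NRPD1ΔCTD read 8.46% and 10.9%, still apart from nrpd1-3 at 7.89% and 7.82%. Chromosome 1 right read 13.3% and 13.8%, 7.64% and 8.99%, and 4.96% and 3.95%, a share of 42.5%. No group overlapped another at either tip over all listed cytosines. The left tip of chromosome 1 read 12.2% and 14.2% in full length, 5.97% and 6.71% in NRPD1ΔCTD, and 4.76% and 2.77% in nrpd1-3, and its share of 27.2% was the lowest of these 6 tips. It became 47.4% over the 52 cytosines listed in all libraries, where full length read 6.38% and 10.4%. The left tip of chromosome 3 read 11% and 8.09%, 4.64% and 5.74%, and 2.06% and 1.69%, a share of 43.2%. With 2 libraries a group, no difference at a single tip could fall under an exact permutation p of 0.33, and the shares of different tips were not tested against each other.

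**Figure D2:**
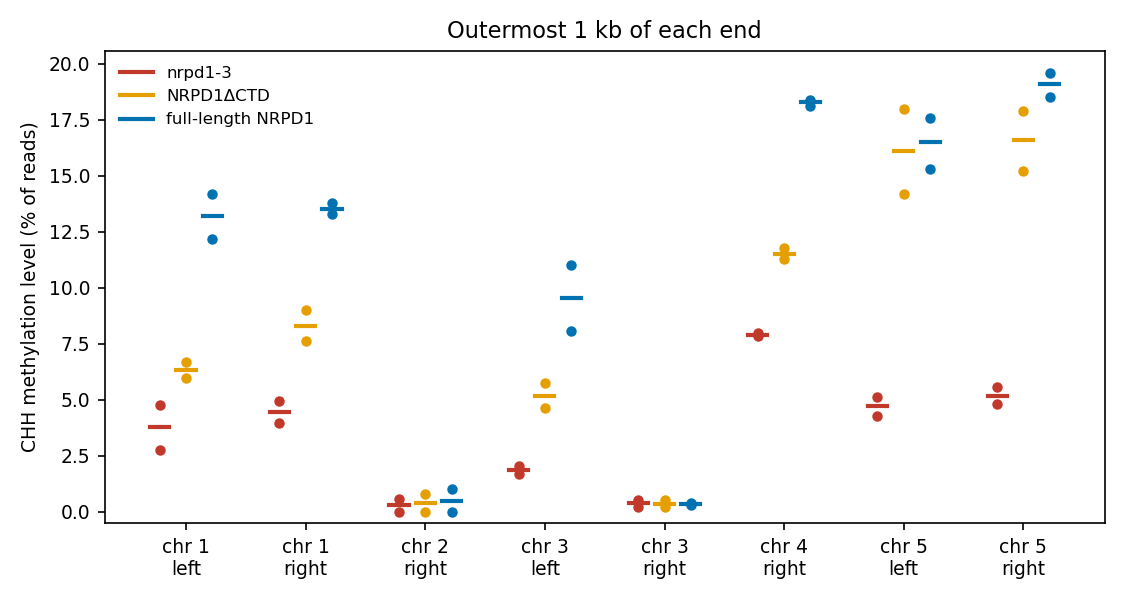
CHH methylation level (percent of reads) of the outermost kilobase of each of the 8 ends with assembled sequence. Points are libraries and bars are group means. At 6 tips both full-length libraries lie above both nrpd1-3 libraries, and at the right tips of chromosomes 2 and 3 no library exceeds 1.02%.

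The right tips of chromosomes 2 and 3 showed no detectable difference. At the latter the 6 libraries read 0.212% to 0.545% over 1100 to 1479 reads. There the assembly ends 26 bases beyond AT3G63540, a gene for a thylakoid lumenal protein family, so the tip is itself coding sequence. The right tip of chromosome 2 had only 54 to 336 reads. Its levels were 0 to 1.02%. By counting error alone, a library with 0 of 54 methylated reads allows a level of up to 5.56%, taken as 3 reads over 54. The upper Wilson 95% limit is 6.64%. Those 54 reads are summed over 9 cytosines and were taken as independent.

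Several of the outermost protein-coding genes were nearly free of CHH methylation. NAC001, which encodes a NAC domain transcription factor and is the outermost gene on the left of chromosome 1, read 0.241% to 0.405% in all 6 libraries, while the 3630 bases outside it read 5.55% and 5.47% in full length against 2.24% and 1.44% in nrpd1-3. AT1G80990, the outermost protein-coding gene on the right, read 0.220% to 0.453%. AT5G01010, which starts 994 bases inside the left end of chromosome 5, read 0.367% to 1.14%. The others named here were methylated. AT4G00005 on the left of chromosome 4 read 7.82% to 11.9% over all libraries. AT2G01008 on the left of chromosome 2 read 6.01% and 5.73% in full length, 5.51% and 5.31% in NRPD1ΔCTD, and 5.18% and 4.48% in nrpd1-3, without overlap. It lies within the first 10477 bases of chromosome 2, which were covered at 22.3 to 24.0 times the chromosome's median. Whether its reads come from several copies was not tested. PRSL1 separated the groups too. This gene for a regulatory protein of type 1 protein phosphatase ends 532 bases from the right tip of chromosome 4. It read 12.1% and 12.8% in full length, 9.96% and 10.3% in NRPD1ΔCTD, and 8.57% and 8.60% in nrpd1-3, in the same order as the tip outside it, which read 21.7% and 19.5%, 13.1% and 13.8%, and 6.99% and 8.00%. No group overlapped another in either stretch.

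The telomeric repeats were mostly out of reach. The ends held 18 runs of at least 2 perfect tandem copies of TTTAGGG or its reverse complement, of which 2 had a listed cytosine in any library and 1 in all. That one lies at chr1:30073495-30073508, far from the tip, and had 0 methylated of 30 to 57 reads per library, summed over 6 cytosines. This allows up to 5.26% to 10% by counting error, again as 3 reads over the total, if these counts are taken as independent. The upper Wilson 95% limits are 6.31% to 11.4%. The printed copies at chr5:26975396-26975409 had no listed cytosine in nrpd1-3. NRPD1ΔCTD read 42.1% (Wilson 95% interval 33.4 to 51.3, 114 reads) and 62.3% (52.8 to 70.9, 106 reads), and full length read 59.1% (51.6 to 66.2, 171 reads) and 58.9% (50.1 to 67.1, 124 reads). The intervals cover counting error only and take the counts at the 6 cytosines of these copies as independent. The NRPD1ΔCTD libraries lay farther from each other than their mean lay from full length. In the printed stretch around these copies the levels were 31.9% and 33.4% in full length, 25.6% and 28.0% in NRPD1ΔCTD, and 3.85% and 2.88% in nrpd1-3, with 46 and 46, 46 and 38, and 16 and 16 cytosines listed. The missing nrpd1-3 cytosines leave the copies themselves unmeasured in that group. A single TTTAGGG or CCCTAAA, searched on both strands, occurred in 471 of the 12375 end windows, or 3.81%, against 3.94% of all kept windows.

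Behind the tips, the ends were mostly unmethylated with a few methylated blocks. In both full-length libraries 10785 of the 12375 windows, 87.2%, were under 1%. Another 299 windows, 2.42%, were at 10% or more in both, and these held 57.7% and 57.3% of all methylated reads of the ends. In bins of 50 kb, 63 of 100 bins had a full-length mean under 1% and 10 had 5% or more. The bin means ranged from 0.330% to 15.2% with a median of 0.647%.

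**Figure D3:**
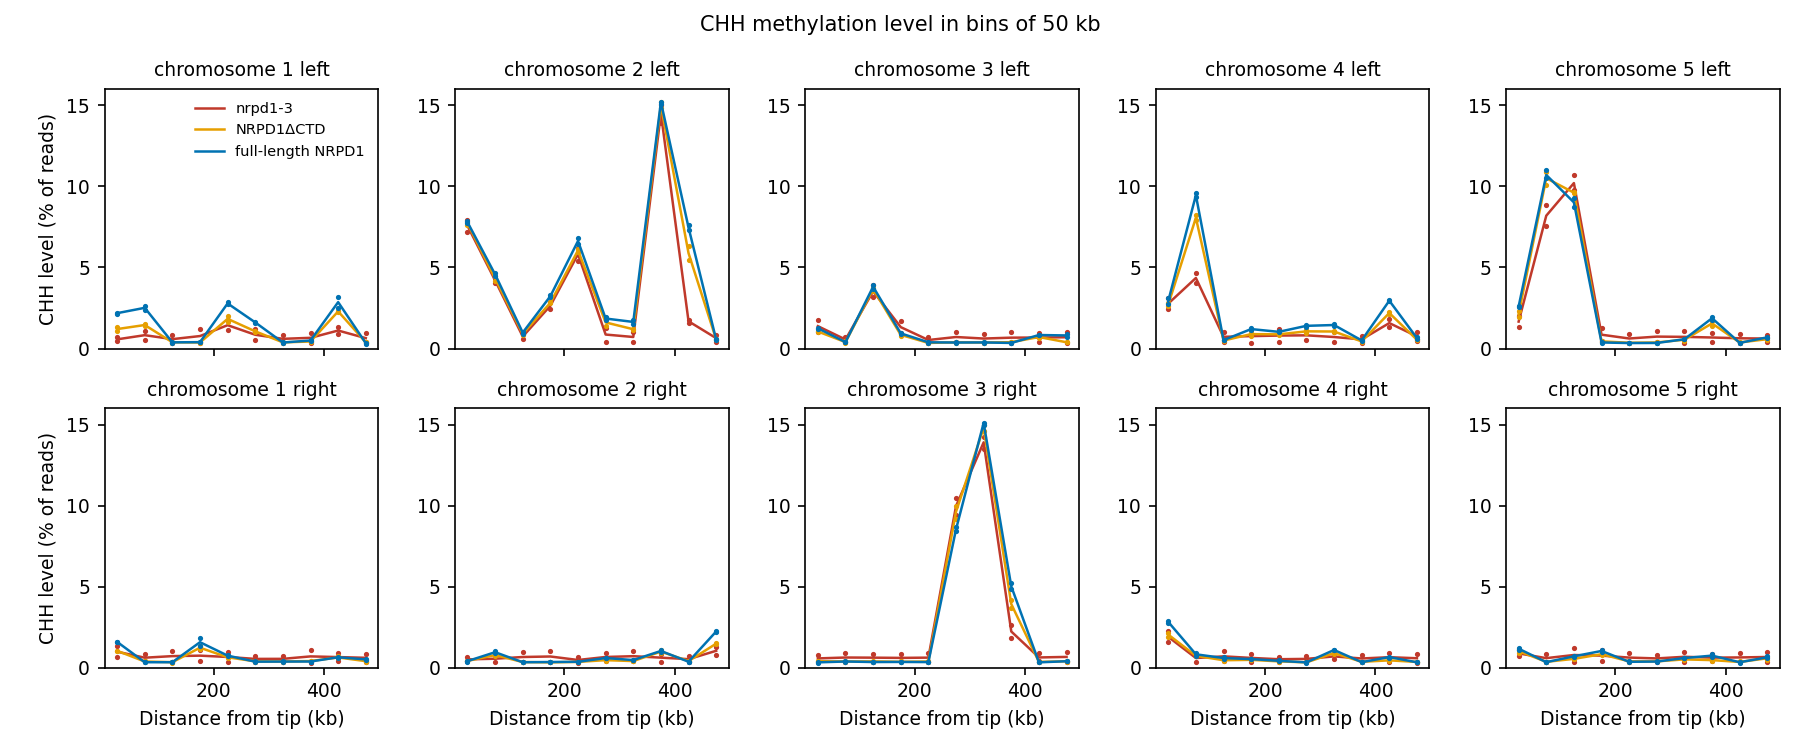
CHH methylation level (percent of reads) in bins of 50 kb against distance from the tip (kb), with a panel for each of the 10 ends. Lines are group means and points are libraries. Most bins lie under 1%, and the highest, on the left end of chromosome 2 and the right end of chromosome 3, have full-length means of 15.2% and 15.1% against nrpd1-3 means of 14.5% and 13.9%.

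The highest pair of bins kept most of its methylation in nrpd1-3, while the third and the fourth lost more. The bin 350 to 400 kb from the left tip of chromosome 2 read 15.2% and 15.1% in full length, 15.2% and 14.8% in NRPD1ΔCTD, and 15.0% and 13.9% in nrpd1-3, and did not pass the test in any comparison. The bin at 300 to 350 kb on the right of chromosome 3 read 15.0% and 15.1%, 15.0% and 14.6%, and 14.2% and 13.5%. It fell by 1.18 points in nrpd1-3 (SE 0.400, limma, adjusted p = 0.0115). The limma fit shares its estimate of the spread over bins, so its SEs and p-values rest only in part on a bin's own replicates. In the next highest, at 50 to 100 kb on the left of chromosome 5, the loss was larger, from 11% and 10.5% to 8.82% and 7.56%, a fall of 2.56 points (SE 0.427, limma, adjusted p = 1.83e-08). NRPD1ΔCTD read 10.9% and 10.1% there and differed from full length by only 0.263 points (limma, adjusted p = 1.0, SE 0.427).

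Other blocks lost much of their methylation in nrpd1-3. At 400 to 450 kb on the left of chromosome 2, next to the highest block, full length read 7.61% and 7.30%, NRPD1ΔCTD 6.30% and 5.46%, and nrpd1-3 1.76% and 1.60%. This was the largest loss of any end bin, 5.78 points (SE 0.392, limma, adjusted p = 2.74e-46), and NRPD1ΔCTD was 4.2 points above nrpd1-3 (adjusted p = 1.55e-24) and 1.58 points below full length (adjusted p = 0.00174). The fourth highest, at 50 to 100 kb on the left of chromosome 4, also lost much. There full length read 9.35% and 9.56%, NRPD1ΔCTD 7.91% and 8.21%, and nrpd1-3 4.65% and 4.05%. The loss was 5.10 points (SE 0.418, limma, adjusted p = 3.48e-32), of which NRPD1ΔCTD regained 3.71. The bins at 350 to 400 kb on the right of chromosome 3 and at 400 to 450 kb on the left of chromosome 1 followed, with falls of 2.78 (SE 0.370) and 1.75 (SE 0.324) points in nrpd1-3.

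Calls over bins used limma at an adjusted p of 0.05 over all 2375 bins of the genome with at least 20 kept windows. In nrpd1-3, 19 of 100 end bins were lower than in full length, against 32.3% of bins genome-wide, and 2 were higher, against 1.35%. NRPD1ΔCTD was above nrpd1-3 in 6 bins, against 19.6%, and below it in 0, against 0.547%, with 0 end bins also at an unadjusted p of 0.05. NRPD1ΔCTD was below full length in 6 bins, against 9.26%, and above it in 0, against 0.0842%, with 1 bin at an unadjusted p of 0.05. These counts moved with the processing and with single libraries, and the cause was not tested. With the coding-exon level of each library subtracted, an alternative chosen after the data had been seen, 40 end bins were lower and 17 higher in nrpd1-3 than in full length, against 53.6% and 10.4% genome-wide. NRPD1ΔCTD was then above nrpd1-3 in 30 and below it in 7, against 42.8% and 3.75%, and below full length in 17 and above it in 1, against 26.2% and 0.547%. Without nrpd1-3 replicate 1, more end bins were lower in nrpd1-3 than in full length. Without replicate 2, more were higher in it, and more were lower in NRPD1ΔCTD than in nrpd1-3. Genome-wide shares are not given for settings with 1 library left out, so these shifts cannot be read as particular to the ends. The 6 bins of NRPD1ΔCTD below full length became 0 or 1 when any single library of either group was left out.

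The 2 bins called higher in nrpd1-3 lie in methylated blocks. At 250 to 300 kb on the right of chromosome 3, nrpd1-3 read 10.5% and 9.40%, NRPD1ΔCTD 10% and 9.20%, and full length 8.66% and 8.42%, a difference of 1.43 points (limma, adjusted p = 0.00327). At 100 to 150 kb on the left of chromosome 5 the values were 10.7% and 9.78%, 9.67% and 9.56%, and 9.30% and 8.73%, a difference of 1.21 points (limma, adjusted p = 0.0161). The groups nrpd1-3 and full length did not overlap in either bin. Both calls were lost without nrpd1-3 replicate 1, where the difference in the second bin was 0.767 points, and without either full-length library.

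Pseudogenes, which in this annotation include transposon-derived copies, held most of the windows that stayed methylated in nrpd1-3. Of the 169 end windows at 10% or more in both nrpd1-3 libraries, 108 lay in pseudogenes, which make up 2.25% of end windows. Among the 22 pseudogenes of at least 1500 bp, 8 were at 10% or more in all libraries. AT2G01840, in the highest block of chromosome 2, read 21.7% and 22.1% in full length, 21.5% and 21.6% in NRPD1ΔCTD, and 21.5% and 21.1% in nrpd1-3. AT3G62475, next to the window with the largest loss by the naming rule, read 22.1% and 21.2%, 20.9% and 20.7%, and 18.4% and 18.5%. In it nrpd1-3 was lower without overlap. AT5G01185 on the left of chromosome 5 read 18.9% and 19.0%, 19.2% and 18.8%, and 17.0% and 15.0%.

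Some pseudogenes went the other way. AT3G62725 read 18.7% and 19.0% in full length, 20.6% and 20% in NRPD1ΔCTD, and 21.6% and 20.8% in nrpd1-3. AT5G01335 read 18.4% and 17.7%, 18.6% and 18.8%, and 20% and 19.5%. In both, nrpd1-3 was highest and no group overlapped another. These pseudogenes fall in the pair of bins called higher in nrpd1-3. Another 6 of the 22 were at 1% or less in full length. AT5G66455 read 8.32% and 4.75% in full length, 3.75% and 3.66% in NRPD1ΔCTD, and 0.245% and 0.455% in nrpd1-3.

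Single windows gave the finest view. A window was called where a logistic regression on methylated and unmethylated reads reached a Benjamini-Hochberg adjusted p of 0.01 over all 278507 windows with a distance of 10 points or more between pooled levels. In nrpd1-3, 142 end windows, 1.15%, were lower than in full length, against 2.44% of windows genome-wide, 1.83% in the rest of the arms and 4.38% in the pericentromeric heterochromatin. The share at the ends was thus below all 3, a difference that was not tested. A single end window was higher in nrpd1-3, against 0.0162% genome-wide. NRPD1ΔCTD was higher than nrpd1-3 in 86 end windows, 0.695% against 1.50%, and lower in 0, against 0.00826%. It was lower than full length in 46, 0.372% against 0.541%, and higher in 1, against 0.0140%. The groups did not overlap in any of the 142 or the 86 windows and in 44 of the 46, much as in the arms, where this held for 3576 of 3582, 2252 of 2255 and 942 of 954. Without nrpd1-3 replicate 2, more end windows were higher in nrpd1-3 than in full length, and more were lower in NRPD1ΔCTD than in nrpd1-3. Genome-wide shares are not given for that setting.

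These calls take reads as independent, and tests that allow for the spread between replicates called fewer. limma on arcsine square root levels called 56 end windows lower in nrpd1-3, against 0.895% genome-wide. It called 14 higher in NRPD1ΔCTD than in nrpd1-3, against 0.194%, and 0 lower in NRPD1ΔCTD than in full length, against 0 genome-wide. An overdispersed F test called 0 windows in every comparison, at the ends and in the whole genome, so it cannot set the ends apart. At an unadjusted p of 0.05 with the same 10 points, limma gave 141, 85 and 38 windows in these directions, against 2.42%, 1.48% and 0.492% genome-wide, and the F test 124, 76 and 24, against 2.07%, 1.18% and 0.265%. By limma 0 windows were lower in NRPD1ΔCTD than in nrpd1-3, at either threshold, and the F test gave 0 as well. Replicates of one group lay 10 or more points apart in 15, 11 and 21 end windows of nrpd1-3, NRPD1ΔCTD and full length. These are 0.121%, 0.0889% and 0.170% of end windows, against 0.194%, 0.243% and 0.267% genome-wide. Replicate 1 was the higher in 15, 5 and 10 of them, thus in every such window of nrpd1-3.

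The 142 windows were spread over all 10 ends, with 32 on the left of chromosome 2, 30 on the left of chromosome 4, 19 on the left of chromosome 1, and 5 to 14 on each of the others. They lay mostly between genes, much as in the rest of the arms. Intergenic windows made up 15.3% of end windows and 115 of the 142, or 81.0%. In the rest of the arms they made up 17.4% of windows and 79.0% of those called lower. Of the 142, 90, or 63.4%, lay within 1 kb of a protein-coding gene, against 93.7% of all end windows. The intergenic ones alone lay within 1 kb in 59.1% of cases, against 73.4% of all intergenic end windows, with a median distance of 830 bp against 449 bp. In coding exons, 47.8% of end windows, only 3 were called, or 2.11% of the 142, against 3.66% of such windows in the rest of the arms. Over all intergenic end windows the levels were 6.55% and 6.44% in full length, 5.46% and 5.15% in NRPD1ΔCTD, and 3.88% and 3.28% in nrpd1-3, without overlap.

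nrpd1-3 and full-length levels chose the 142 windows and are given as a description. Pooled, they read 28.8% and 29.1% in full length and 6.85% and 6.56% in nrpd1-3, and 107 had a nrpd1-3 mean under 5%. NRPD1ΔCTD, which took no part in the choice, read 21.6% and 21.3%, or 66.2% of the way to full length. The same share was 68.5% for such windows in the rest of the arms and 71.0% in the heterochromatin. Window by window the share had a median of 64.4%, quartiles of 44.0% and 78.7% and a range of −3.81% to 132%. It was under 25% in 18 windows and over 75% in 45. NRPD1ΔCTD was above nrpd1-3 by the call rule in 83 of the 142, or 58.5%, against 61.7% of such windows in the rest of the arms and 54.8% in the heterochromatin. It was below full length in 46, or 32.4%, against 26.5% and 16.3%. Both calls held in 24 windows and neither in 37. These calls reuse the nrpd1-3 and full-length levels that chose the windows, and the differences between regions were not tested.

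**Figure D4:**
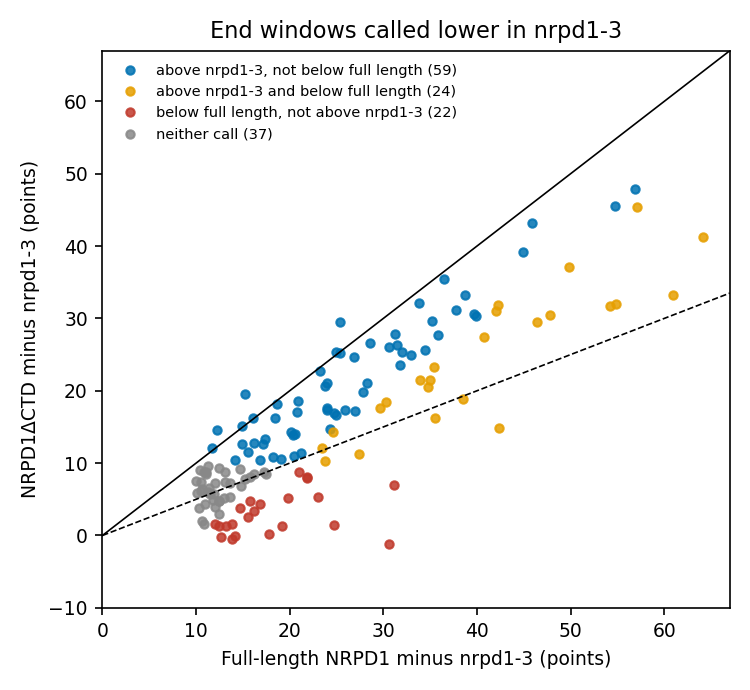
Gain of NRPD1ΔCTD over nrpd1-3 (percentage points, vertical axis) against the loss in nrpd1-3 (full-length NRPD1 minus nrpd1-3, percentage points, horizontal axis) for the 142 end windows called lower in nrpd1-3. Both axes subtract the same nrpd1-3 level, the solid line marks full regain and the dashed line regain of 50%, and colours give the calls for NRPD1ΔCTD. Most points lie between the lines, and 22 windows are below full length without passing the call above nrpd1-3.

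The printed pair of chromosome 3 windows came first by the naming rule. At chr3:23108701-23109000, 156 bp from AT3G62470, a pentatricopeptide repeat gene, the level was 72.3% and 75.8% in full length, 52.1% and 42.0% in NRPD1ΔCTD, and 14.6% and 11.8% in nrpd1-3. The level fell by 60.9 points in nrpd1-3 and by 27.6 points in NRPD1ΔCTD. At chr3:23115601-23115900, which lies 524 bp from a long non-coding RNA gene and shares sequence with the first, the values were 58.5% and 58.9%, 32.9% and 38.1%, and 2.97% and 4.63%. NRPD1ΔCTD lay between the other groups in both windows without overlap. The reads behind these values numbered 1051 to 1496 in the first window and 437 to 1323 in the second.

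The pair alike across chromosomes gave like values. At chr3:422701-423000, 118 bp from AT3G02245, full length read 41.4% and 44.4%, NRPD1ΔCTD 39.4% and 28.8%, and nrpd1-3 3.17% and 3.20%. At chr2:19623301-19623600 the values were 40.7% and 34.1%, 33.9% and 29.9%, and 1.99% and 2.92%. In both windows full length was above NRPD1ΔCTD in each library, and in the first the replicates of NRPD1ΔCTD differed by more than its mean differed from full length. Exchange of reads between the copies was not tested.

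Several losing windows neighbour genes of known roles. WOL, which encodes a cytokinin receptor also known as AHK4, lies 433 bp from chr2:362401-362700, where full length read 40.0% and 39.0%, NRPD1ΔCTD 20.3% and 19.1%, and nrpd1-3 0.592% and 1.3%. NRPD1ΔCTD was near the middle, 18.8 points above nrpd1-3 and 19.7 below full length, both past the call rule (logistic regression, adjusted p = 5.79e-54 and 6.48e-31). The window at chr2:183901-184200 lies in the non-coding RNA gene AT2G01422 and 286 bp from PIN4, an auxin efflux carrier gene. It read 40.4% and 44.6%, 30.9% and 26.9%, and 8.33% and 7.00%, without overlap. Over the whole of AT2G01422, at chr2:183940-184734, the levels were 19.4% and 17.4% in full length, 15.2% and 12.1% in NRPD1ΔCTD, and 5.0% and 4.31% in nrpd1-3.

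Regain varied among the other windows. At chr4:425401-425700, 962 bp from AT4G00980, full length read 46.5% in both libraries, NRPD1ΔCTD 40.6% and 40.9%, and nrpd1-3 2.30% and 1.16%. The difference between NRPD1ΔCTD and full length, 5.73 points, missed the call (logistic regression, adjusted p = 0.0735). At chr2:163201-163500, near At17.1, the full-length replicates themselves read 31.6% and 46.6%, NRPD1ΔCTD 38.1% and 29.3%, and nrpd1-3 2.22% and 0.549%. At chr2:275701-276000, 848 bp from AT2G01610, the values were 54.9% and 53.9%, 43.5% and 39.5%, and 3.57% and 5.95%, and NRPD1ΔCTD was called below full length (logistic regression, adjusted p = 4.62e-13). At chr2:399901-400200, 712 bp from PAP8, a purple acid phosphatase gene, they were 34.0% and 39.3%, 27.0% and 23.0%, and 3.88% and 0%. The last was 0 of 246 reads, which allows up to 1.22% as 3 reads over the total and 1.54% as the Wilson 95% limit. NRPD1ΔCTD was called below full length there too (logistic regression, adjusted p = 0.000169).

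Other windows regained little. At chr1:1-300, the printed left tip of chromosome 1, full length read 25.7% and 28.9%, NRPD1ΔCTD 10.2% and 8.78%, and nrpd1-3 6.86% and 1.77%. NRPD1ΔCTD was 17.7 points below full length (logistic regression, adjusted p = 4.04e-10) and not called above nrpd1-3. The libraries listed 21 to 62 cytosines in this window, but only 6 were listed in all libraries. The groups were therefore compared over partly different cytosines, and the common ones were too few for a check. At chr4:68701-69000, 295 bp from AT4G00163, full length read 29.8% and 34.4% and nrpd1-3 0.415% and 1.67%, but the NRPD1ΔCTD libraries disagreed, with 1.08% and 12.4%. About 1 kb away, at chr4:67501-67800, the same library pair read 6.67% and 22.6% against 0 to 0.803% in all others, the only end window called higher in NRPD1ΔCTD than in full length. Without NRPD1ΔCTD replicate 2 the difference was 6.46 points and the call was lost. This window has fewer than 20 cytosines in some library and was named after its values were seen.

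Genes with several losing windows in their body or the 1 kb upstream were few. AT1G02228, a pseudogene of the NAM family, had 4 and read 26.6% and 21.2% in full length, 14.7% and 16.4% in NRPD1ΔCTD, and 6.23% and 5.75% in nrpd1-3. AT4G00750, annotated as a methyltransferase gene, had 3. Of these, chr4:313201-313500 and chr4:313501-313800 lie upstream of the start of the gene at base 314239. AT4G00750 read 7.45% and 7.75%, 4.70% and 3.76%, and 0.671% and 0.781%. The groups kept this order without overlap in both genes. The single window higher in nrpd1-3 than in full length was chr2:175201-175500, in a coding exon of AT2G01400. Full length read 58.1% and 50.5% there, NRPD1ΔCTD 61.3% and 62.4%, and nrpd1-3 69.8% and 64.2%. Without full-length replicate 2 the difference was 8.56 points, under the 10 needed.

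Sequence context differed between the losing windows and those that kept their methylation. In the 142 losing windows of full length, the means were 37.3% at CAA and 41.0% at CTA but also 22.2% at CCC and 21.4% at CCT. In nrpd1-3 they fell to 12.6%, 12.5%, 2.94% and 2.46%, and in NRPD1ΔCTD they were 28.8%, 31.4%, 15.8% and 13.3%, between the other groups at all 4. In the 156 other windows at 10% or more in both nrpd1-3 libraries, CAA read 44.7%, 44.9% and 44.0% in nrpd1-3, NRPD1ΔCTD and full length, and CTA 44.4%, 45.1% and 43.8%. CCC read only 2.09%, 2.21% and 2.19% there. Each window set was chosen by its levels, so these are descriptions without a test. The strands were alike, with means of 29.1% on the top and 28.7% on the bottom strand for the losing windows of full length.

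The left tip of chromosome 2 differed from the others in depth. Its first 10477 bases, up to the first pseudogene and including the ribosomal RNA genes, were covered at 22.3 to 24.0 times the chromosome's median and held 40.3% to 42.4% of all reads of this end. The level there was 7.51% and 7.28% in full length, 7.35% and 7.13% in NRPD1ΔCTD, and 7.29% and 6.52% in nrpd1-3. AT2G01010, a ribosomal RNA gene, read 8.64% and 8.17%, 9.48% and 8.31%, and 9.09% and 8.66%. AT2G01020, another, read 5.35% and 5.24%, 5.17% and 4.99%, and 5.79% and 5.22%. The largest difference between group means in these 3 stretches was 0.487 points. In AT2G01010 both nrpd1-3 libraries were above both full-length libraries, and in AT2G01020 NRPD1ΔCTD was below both other groups, each without overlap at the smallest exact permutation p of 0.33. In the whole stretch the groups overlapped in every comparison.

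Over whole ends the groups overlapped. The level over all end windows was 2.67% and 2.55% in full length, 2.57% and 2.35% in NRPD1ΔCTD, and 2.68% and 2.00% in nrpd1-3, with means of 2.61% ± 0.0891, 2.46% ± 0.150 and 2.34% ± 0.477 (SD, n = 2 each). The exact permutation p was 1.0 for nrpd1-3 against full length. With each library's coding-exon level of the ends subtracted, full length stood at 2.04% and 1.92%, NRPD1ΔCTD at 1.92% and 1.74%, and nrpd1-3 at 1.54% and 1.43%. nrpd1-3 was then below both other groups without overlap, by 0.497 and 0.347 points, at the smallest exact permutation p of 0.33. The unsubtracted share regained, 44.5%, was 83.9% and 5.06% by NRPD1ΔCTD library and is not a stable value.

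The rest of the arms read 3.15% and 2.94% in full length, 2.89% and 2.65% in NRPD1ΔCTD, and 2.73% and 2.07% in nrpd1-3. Within each library, ends minus arms was −0.474 and −0.396 points in full length, −0.328 and −0.298 in NRPD1ΔCTD, and −0.0477 and −0.0714 in nrpd1-3. The ends were thus below the arms in every library, by the most in full length, and the groups did not overlap. After subtraction of coding exons of the same class, the nrpd1-3 ends stood at 1.54% and 1.43% against 1.44% and 1.34% for the arms, so that they lay above the arms in both nrpd1-3 libraries. Full length then stood at 2.04% and 1.92% against 2.26% and 2.09%, still below. Before subtraction, the gap of nrpd1-3 differed from that of full length by 0.375 points and from that of NRPD1ΔCTD by 0.253, each at an exact permutation p of 0.33, the smallest possible.

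By end, the left end of chromosome 2 was highest, with 6.74% and 6.59% in full length, 6.64% and 6.33% in NRPD1ΔCTD and 6.56% and 5.81% in nrpd1-3. The left end of chromosome 4 showed the largest loss, with 2.57% and 2.48% in full length, 2.13% and 2.06% in NRPD1ΔCTD, and 1.84% and 1.24% in nrpd1-3, and no groups overlapped. The left end of chromosome 1 read 1.43% and 1.34%, 0.988% and 0.969%, and 1.10% and 0.525%, where nrpd1-3 lay below full length without overlap but spread around NRPD1ΔCTD. The right ends of chromosomes 1, 2, 4 and 5 had full-length levels of 0.618% to 0.821%. In nrpd1-3 they read 0.870% to 0.983% in replicate 1 and 0.390% to 0.50% in replicate 2, on both sides of full length. In 30 comparisons, 3 per end, the Benjamini-Hochberg adjusted exact permutation p was 0.909 or 1.0.

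The border at 500 kb was set by rule, and levels differed across it. From 450 to 500 kb the full-length libraries read 0.721% and 0.682% with 7 of 1166 windows called lower in nrpd1-3, or 0.600%. From 500 to 550 kb they read 2.63% and 2.44% with 19 of 1150, or 1.65%.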

How the data were processed

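Whole-genome bisulfite libraries of nrpd1-3, NRPD1ΔCTD (nrpd1-3) and full-length NRPD1 (nrpd1-3), 2 each, were used. Per the labels and the paper's methods, the authors used bcl2fastq 2.16.0.10, cutadapt 1.9.1, Bismark 0.16.1 and methylKit 0.9.5. The deposited files list, for each CHH cytosine, the coverage as a count of reads and the percent of reads called C. Only cytosines with at least 5 reads are listed, which was checked, and 0 rows belong to other sequences. Coordinates are those of TAIR10, and each listed position holds a cytosine in the RefSeq copy (TAIR10.1).

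Methylated reads were taken as coverage times percent. Windows of 300 bp from base 1 with at least 10 listed cytosines in every library were kept. Pericentromeric heterochromatin and the knob were set apart by fixed limits, and the remainder formed the arms. The members and gene lists were chosen with earlier results of these data known.

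Windows were tested by logistic regression (likelihood ratio) with Benjamini-Hochberg adjustment over all windows and called at an adjusted p of 0.01 and 10 points, which follows the authors' kind of test apart from their adjustment. Bins of 50 kb were tested with limma 3.58.1 (R 4.3.3) on weighted levels, with the spread shared over bins, at an adjusted p of 0.05. Single levels were compared by exact two-sided permutation of libraries. Named windows were the 10 largest losses in nrpd1-3, the 5 largest in NRPD1ΔCTD against full length and up to 5 gains among called windows with at least 20 cytosines in every library, 2000 bp apart, plus the outermost kept window of each end. Named bins were the 5 highest in full length and the 5 largest losses. Sequences were aligned locally with Biopython 1.88. Python 3.11.15, NumPy 2.4.6, pandas 2.3.3 and SciPy 1.17.1 were used. Of the tests, only the logistic regression of windows and the limma fit of bins were tried on simulated data.

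Other depths, cytosine minimums, end lengths, bin sizes, scales and tests, and each library left out, were tried. The coding-exon subtraction, the outermost kilobase and its alternatives were chosen after seeing the data.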

Additional observations from a re-analysis of the deposited data

How the results depend on the processing

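The counts of called end windows moved with depth and thresholds, and those with more than a few windows kept a value above 0 except under the tests named last. In the order lower in nrpd1-3 than full length, higher in NRPD1ΔCTD than nrpd1-3, and lower in NRPD1ΔCTD than full length, the 142, 86 and 46 windows became 70, 38 and 19 with at least 10 reads per cytosine, 75, 44 and 20 with at least 20 cytosines, and 74, 43 and 8 at 20 points. They became 68, 38 and 18 with ends of 250 kb and 314, 182 and 89 with ends of 1000 kb, which hold other numbers of windows, and 80, 53 and 28 without the left ends of chromosomes 2 and 4. Over cytosines listed in all 6 libraries, 26 windows were lower in NRPD1ΔCTD than full length. limma on the arcsine square root scale gave 56, 14 and 0, and the overdispersed F test gave 0, 0 and 0, the latter also over the whole genome. The cause of these differences was not tested. The single window higher in nrpd1-3 than full length became 3 with ends of 1000 kb or with windows shifted to start in the middle of the old ones, and 0 without the left ends of chromosomes 2 and 4, at 20 points, and by limma and the F test. With ends of 1000 kb, 3 windows were lower in NRPD1ΔCTD than nrpd1-3. The single window higher in NRPD1ΔCTD than full length became 2 with shifted windows and 0 with 20 cytosines, without the left ends of chromosomes 2 and 4, at 20 points, and by limma and the F test.

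With 1 library left out, the lone library of a group was assumed to vary like the others, and the counts have no genome-wide share beside them. The 3 larger counts then ranged from 137 to 147, 84 to 90 and 45 to 53. Higher in nrpd1-3 ranged from 0 to 17, lower in NRPD1ΔCTD than nrpd1-3 from 0 to 15, and higher in NRPD1ΔCTD than full length from 1 to 2. The whole-end difference of nrpd1-3 from full length ranged from −0.606 to 0.0683 points, and that of NRPD1ΔCTD from nrpd1-3 from −0.218 to 0.457, both reversing without nrpd1-3 replicate 2. The latter was −0.00384 without the left ends of chromosomes 2 and 4 and −0.0296 with windows weighted equally. The share regained over all end windows was −3.86% and −39.7% under these settings, and 5.06% to 319% with 1 library left out. The outermost kilobase kept its order, with losses of 9.50 to 10.3 points in nrpd1-3 (−10.3 to −9.50) and gains of 5.18 to 5.99 in NRPD1ΔCTD. The telomeric repeat difference of NRPD1ΔCTD from full length was −6.87 points when the chromosome 5 copies were pooled with the unmethylated run on chromosome 1. This pooled difference ranged from −15.8 to 2.01, and was not computed against nrpd1-3.

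The bin counts moved most, and genome-wide shares are not given for the settings with 1 library left out. With 1 library left out, bins lower in nrpd1-3 than full length ranged from 10 to 52 and higher from 0 to 60. Bins lower in NRPD1ΔCTD than nrpd1-3 ranged from 0 to 63 and higher from 3 to 36, and bins lower in NRPD1ΔCTD than full length from 0 to 1. Subtracting coding exons gave 40, 17, 7, 30, 17 and 1, with nrpd1-3 against full length first, then NRPD1ΔCTD against nrpd1-3, then against full length, each lower and higher. Bins of 100 kb gave 8 lower and 0 higher in nrpd1-3, and 1 lower in NRPD1ΔCTD than full length. Equal weighting of windows gave 1 higher in nrpd1-3 and 1 lower in NRPD1ΔCTD than full length, the logit scale gave 0 of the latter, and 10 reads per cytosine gave 1 higher.

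Same-numbered libraries did not deviate together (correlations over end windows of −0.0280 to −0.00531). With the replicate block, the counts of called windows were unchanged at 142, 86 and 46, while bins of NRPD1ΔCTD against nrpd1-3 gave 1 lower and 11 higher, and 1 bin was higher in NRPD1ΔCTD than full length.

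Over the windows and bins described singly, 168 of 177 alternatives for windows and 156 of 192 for bins kept direction and side of the threshold. Reversals were in small differences. For nrpd1-3 against full length, leaving out 1 library gave −0.139 to 0.0735 points at the right tip window of chromosome 2, −0.112 to 0.373 at that of chromosome 3 and −0.480 to 2.75 at the left tip window of chromosome 4. The chromosome 3 window also gave −0.194 with 10 reads and −0.0885 with cytosines listed in all libraries. The same way, the bin at 350 to 400 kb on the left of chromosome 2 gave −0.0636 to 1.01 for NRPD1ΔCTD against nrpd1-3, and that at 50 to 100 kb on the left of chromosome 5 gave −0.642 to 0.116 for NRPD1ΔCTD against full length. Over cytosines listed in all libraries, the right tip windows of chromosomes 4 and 5 differed by −3.03 and −9.94 points between nrpd1-3 and full length, short of the 10 needed.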
